A study of Mus musculus with 6 samples.

Results

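The interferon response and antigen presentation genes are 44 named genes, chosen by function: interferon-stimulated genes, sensors of foreign RNA or DNA, and genes that load and display peptides on MHC class I. All 44 were found among the 53726 genes of the RNA-seq count table. They were followed in the Achilles tendon of mice at 4 weeks of age, with 1 RNA-seq library for each of 3 genotypes. The Control mouse was Dicer f/f, carrying both floxed Dicer alleles without Cre. The ScxHt mouse was ScxCre/+ KI with Dicer +/+, so it had Cre and 1 altered Scx allele but no floxed Dicer. The Dicer cKO mouse was ScxCre/+ KI with Dicer f/f, and shared the floxed alleles with Control and the Cre allele with ScxHt. Cre was driven from the Scx locus, which is active mainly in tendons and ligaments. The sample also held other cells, and recombination by cell type was not analysed here. As each genotype was 1 library, the spread between mice is unknown, no test was made and no p-value is given.

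Interferons are secreted when a cell detects viral or misplaced nucleic acid. Type I interferons act through Jak1 and Tyk2 on a complex with Stat2 and Irf9 that binds the interferon-stimulated response element (ISRE), whereas interferon gamma acts mainly through the gamma-activated site (GAS). Cells keep a low tonic level of many of these genes without infection, and nearly all nucleated cells carry MHC class I. DICER, which cuts miRNA precursors, is also related to RNA-sensing pathways through its handling of double-stranded RNA.

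Dicer1, the targeted gene, had 1919 reads in Control, 2025 in ScxHt and 1621 in Dicer cKO. After division by the size factors of each pair of libraries, Dicer cKO stood at 0.877 of Control (95% exact Clopper-Pearson counting interval 0.821 to 0.938) and at 0.882 of ScxHt (0.826 to 0.942). ScxHt stood at 1.01 of Control (0.949 to 1.08). The counts cover the whole gene, not the floxed exon alone, and cells outside the Scx lineage can contribute to them. Total counts were 16244232 in Control, 15769301 in ScxHt and 14959399 in Dicer cKO, and all intervals cover counting error only. The 12 tendon markers, among them Scx and Tnmd, had reads in every library and summed to 138506 CPM (counts scaled to a common library total) in Control, 123942 in ScxHt and 80358 in Dicer cKO. Col1a1 and Col1a2 carried the lower ScxHt sum, since 9 of the 12 had intervals above 1 in ScxHt/Control (median ratio 1.28). All 12 had intervals below 1 in Dicer cKO/Control. Of all genes with a mean normalised count above 50, 26.4% and 28.5% had such intervals. The 12 skeletal muscle markers, mostly Ttn by reads, summed to 55757, 31645 and 96902 CPM in the same order. All 12 were higher in Dicer cKO than in either other library, and in ScxHt/Control 8 were lower and 4, among them Myh4 (4.70) and Pvalb (3.22), were higher.

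The promoters were searched for the elements named above. The RefSeq promoter table (build GRCm38.p6), which covers 250 bases before and 50 after a start site, matched 34 of the 44 genes. No entry was used for Oas2, Mx1, Mx2, Usp18, Dhx58, Ifi27, Parp14, Rtp4, Nlrc5 and Zbp1. The ISRE core was searched as GAAANNGAAA on both strands, where overlapping matches on a strand can share letters. It was found in 18 of the 34 genes (52.9%), against 3.99% of the 27025 genes in the table and 3.44% of its 32851 promoters. The GAS letters TTCNNNGAA, which read the same on both strands, were found in 9 of the 34 genes (26.5%), against 9.55% of genes and 8.30% of promoters. The following windows are shown because their genes carried the largest or best counted differences between libraries, some higher and some lower in ScxHt. Each is read 5′ to 3′ on the strand that holds the motif, with the ISRE core in capitals.

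Rsad2, chr12:26456553-26456582, + strand: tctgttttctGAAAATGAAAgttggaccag
Ifit1, chr19:34640775-34640804, - strand: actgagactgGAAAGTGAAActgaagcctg
Stat2, chr10:128270266-128270295, - strand: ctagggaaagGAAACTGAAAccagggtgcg
Gbp3, chr3:142559989-142560018, - strand: ctgggaaataGAAACTGAAActgtgtcctg
B2m, chr2:122147538-122147567, + strand: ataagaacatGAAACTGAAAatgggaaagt
Igtp, chr11:58199512-58199541, + strand: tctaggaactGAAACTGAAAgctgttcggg
Ifitm2, chr7:140955988-140956017, - strand: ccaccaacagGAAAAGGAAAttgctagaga

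Among the windows shown, those of Stat2, Gbp3, B2m and Igtp had the same core letters GAAACTGAAA. Matches not shown had these letters before Ifit1, Ifit3, Bst2 and Oas1a as well. Irf7 and Xaf1 had promoter entries without a match, which says only that these letters were not in this window. A match is a description of the sequence and not a measured binding site.

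Together the 44 genes took up 15379 reads in Control (0.0948% of the library), 16998 in ScxHt (0.108%) and 15008 in Dicer cKO (0.100%). B2m, H2-K1 and H2-D1 alone made up 38.0%, 48.3% and 41.2% of these reads. Reads were found for all 44 genes in Control and ScxHt and for 43 in Dicer cKO, where Oas3 had none. Levels between genes were compared as deposited RPKM, which is per length and per library depth. In Control they ran from 0.0784 for Oas3 to 33.6 for Ifitm2 among the antiviral effectors and from 0.437 for Psmb9 to 226 for B2m in the MHC class I role. The transcription factors lay closer together, from 1.73 for Irf7 to 4.88 for Irf1. Classical effectors that are scarce in unstimulated tissue were near the bottom: Isg15, the ubiquitin-like modifier, had 12, 5 and 7 reads, and Mx1, a GTPase that blocks viral nucleocapsids, had 5, 21 and 11 reads in Control, ScxHt and Dicer cKO.

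**Figure D1:**
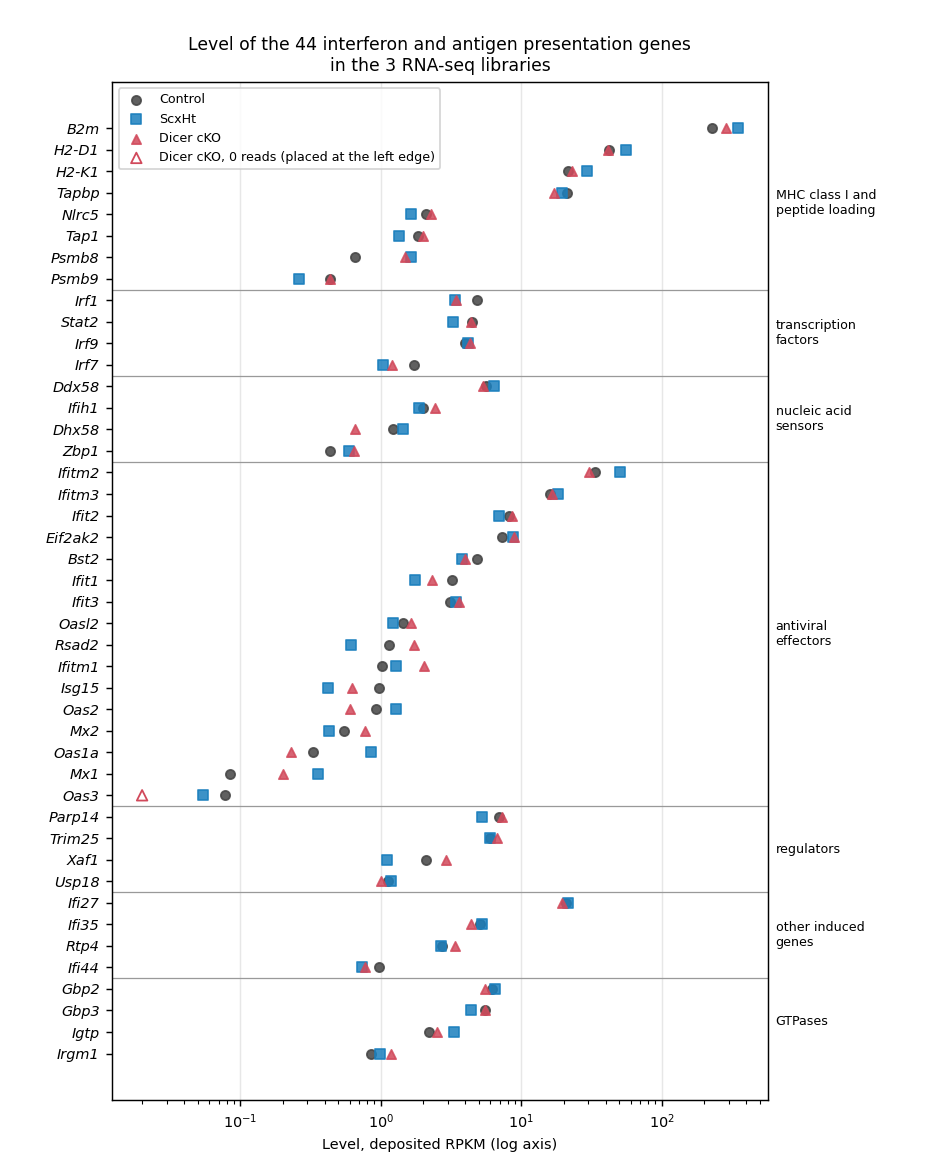
Deposited RPKM of each of the 44 genes (log axis) in Control (circles), ScxHt (squares) and Dicer cKO (triangles), 1 library each, grouped by role and ordered within a role by the Control level. B2m is highest at 226, 347 and 286 RPKM, and Oas3 is lowest, with 0 reads in Dicer cKO (open triangle, placed at the left edge).

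In Dicer cKO the interferon genes lay around their Control level, some above it and some below. Of the 44, 33 had a baseMean (mean normalised count of the pair) above 50, and 0 of them had a Dicer cKO/Control ratio above 1.67 or below 0.60, thresholds that the study used, where 3.87% and 4.19% of all 13404 genes above the minimum did. The counting interval lay above 1 in 4 genes (12.1%, against 21.6% of all genes) and below 1 in 5 (15.2%, against 28.5%). Over the 33 genes the log2 ratio had a median of 0.00 and quartiles of -0.23 and 0.15, beside a median of -0.03 for all genes. The 4 above 1 were B2m, Xaf1, Rsad2 and Eif2ak2, and the 5 below 1 were Oas2, Irf7, Irf1, Tapbp and Ifit1.

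The ScxHt library stood lower than Control in more of these genes than Dicer cKO did, though these are values of 1 mouse each and the Control library is shared by both ratios. Of 35 genes above the minimum, 0 were above 1.67 (3.03% of all 13462 genes) and 4 were below 0.60 (11.4%, against 4.71%): Irf7, Xaf1, Rsad2 and Ifit1. The interval lay below 1 in 14 genes (40%, against 23.8%) and above 1 in 5 (14.3%, against 26.4%). The median log2 ratio was -0.11 with quartiles of -0.49 and 0.09, beside 0.02 for all genes.

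Dicer cKO and ScxHt, which share the Cre allele and differ in Dicer, differed in both directions. Of 35 genes above the minimum, Xaf1 and Rsad2 were above 1.67 (5.71%, against 7.68% of all 13455 genes), and Oas2 and Dhx58 were below 0.60 (5.71%, against 5.68%). The interval lay above 1 in 12 genes (34.3%, against 24.9%) and below 1 in 8 (22.9%, against 30.6%). The median log2 ratio was 0.14, with quartiles of -0.18 and 0.41, beside -0.03 for all genes. The shares past the thresholds in this pair lay near or under those of all genes.

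**Figure D2:**
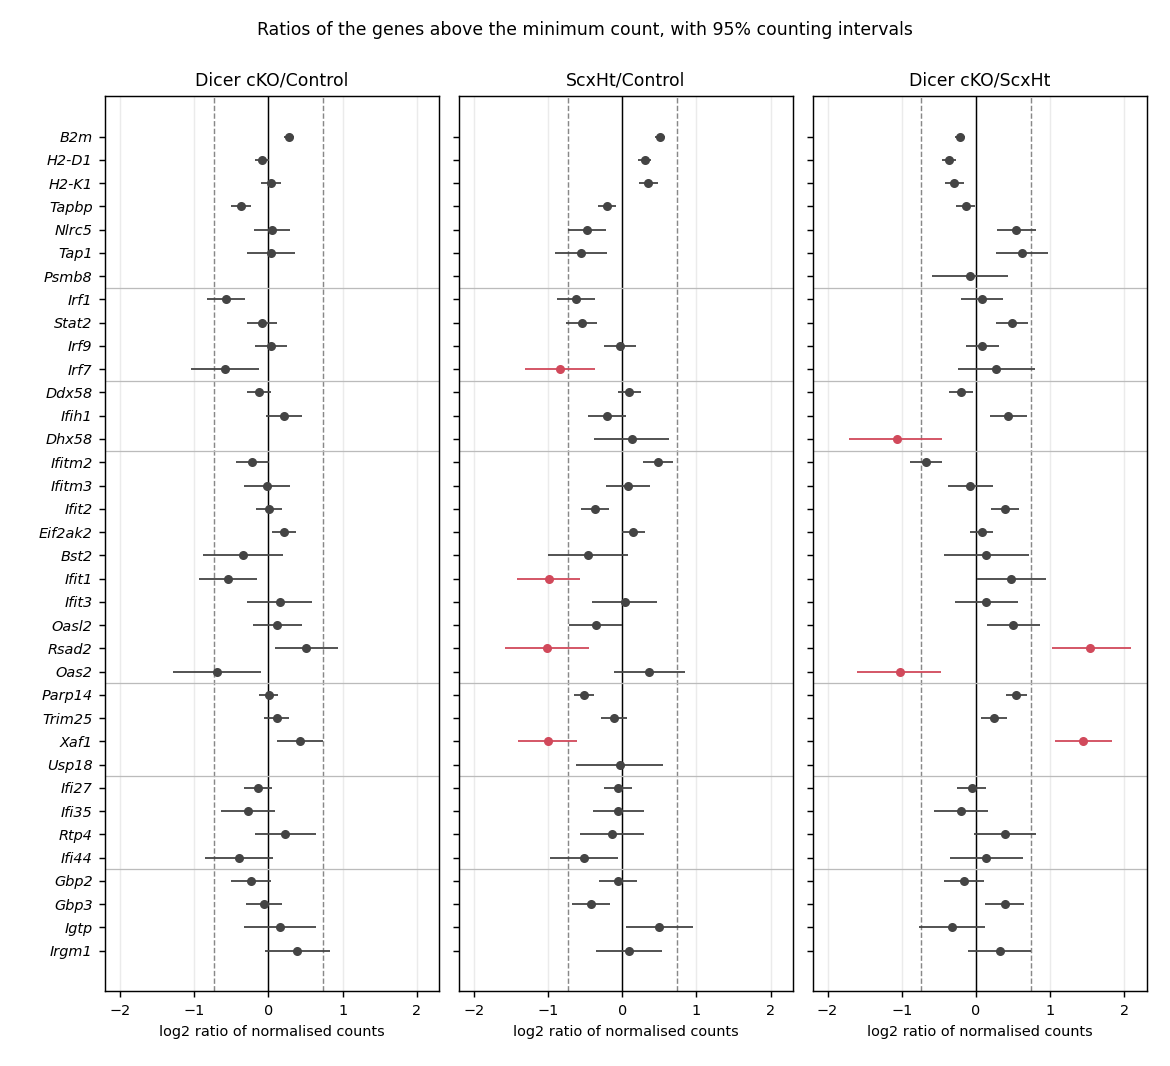
Log2 ratio of normalised counts for each gene with a baseMean above 50 in the 3 comparisons, with bars for the 95% counting interval, dashed lines at 1.67 and 0.60, and red for genes past them. No gene is red in Dicer cKO/Control, 4 are in ScxHt/Control and 4 in Dicer cKO/ScxHt, with Rsad2 and Xaf1 on opposite sides in the last 2 panels.

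Among genes above the minimum, Rsad2, an antiviral effector, had the widest difference. The gene, also known as viperin, makes a chain-terminating nucleotide and lies on chromosome 12 from 26442746 to 26456452 on the minus strand (GRCm38). It had 81 reads (1.15 RPKM) in Control, 42 (0.614 RPKM) in ScxHt and 111 (1.71 RPKM) in Dicer cKO. ScxHt was the low library and Dicer cKO the high one. Dicer cKO was at 1.42 (1.06 to 1.92) of Control and 2.91 (2.02 to 4.26) of ScxHt, and ScxHt at 0.497 (0.334 to 0.730) of Control.

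Ifit1, which binds foreign RNA ends and lies on chromosome 19 from 34640871 to 34650009, had 139 reads in Control, 73 in ScxHt and 92 in Dicer cKO. Both libraries with Cre were below Control, at a ratio of 0.687 (0.522 to 0.901) for Dicer cKO and 0.503 (0.374 to 0.673) for ScxHt. Ifit2, its neighbour and the more abundant gene at 8.24 RPKM in Control, had 526, 427 and 508 reads, so only ScxHt differed from Control beyond counting error (0.778, 0.683 to 0.885). Ifit3 had 88, 94 and 94 reads. Of its 50-base stretches, 51.2% also occur in Ifit3b, so reads of this pair could not be separated with confidence.

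The 2′-5′ oligoadenylate synthetases, which make a short RNA-like messenger on meeting double-stranded RNA, had no common order. Oas2, on chromosome 5 from 120730333 to 120749853, had 67 reads in Control, 90 in ScxHt and 40 in Dicer cKO, with ScxHt highest and Dicer cKO lowest. Its Dicer cKO/Control ratio was 0.620 (0.408 to 0.931) and its Dicer cKO/ScxHt ratio 0.490 (0.329 to 0.718). Oas3, under the minimum count, had 9, 6 and 0 reads. With 3 reads taken as the floor it was 2.89-fold lower in Dicer cKO than in Control, a value that leaves out counting error. The counting interval of this ratio ran from 0 to 0.526. Oas1a, also under the minimum, had 10, 26 and 7 reads and shares 57.6% of its 50-base stretches with Oas1g and Oas1b. Oasl2, a family member with ubiquitin-like domains, differed in its order, with 150 reads in Control, 122 in ScxHt and 157 in Dicer cKO. Its Dicer cKO/ScxHt ratio was 1.42 (1.11 to 1.81).

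Among the membrane-bound effectors, Ifitm2, which hinders viral entry from endosomes, had 357 reads (33.6 RPKM) in Control, 520 (50.3 RPKM) in ScxHt and 296 (30.2 RPKM) in Dicer cKO, the highest level of any antiviral effector listed. ScxHt was at 1.40 (1.22 to 1.60) of Control, and Dicer cKO at 0.627 (0.542 to 0.725) of ScxHt. Of its 50-base stretches, 48.5% occur in other genes such as Gm45717, which is annotated over it on the same strand, so this value is uncertain. Ifitm3, with 177, 195 and 168 reads, and Bst2 (tetherin), with 71, 54 and 54, had intervals that included 1 in every comparison. Eif2ak2 (PKR), the double-stranded RNA-activated kinase that halts translation, had 609 reads in Control, 705 in ScxHt and 676 in Dicer cKO. It was higher than Control in Dicer cKO by 1.15 (1.03 to 1.29), and the ScxHt/Control ratio was 1.11 (0.993 to 1.24). Ifitm1 with 18, 22 and 33 reads and Mx2 with 32, 25 and 42, the remaining scarce genes of this role, were under the minimum in each comparison. Mx2 is annotated as a polymorphic pseudogene.

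The sensors of viral RNA had no common order either. Ddx58 (RIG-I), which detects RNA with a 5′ triphosphate, had 639 reads in Control, 713 in ScxHt and 563 in Dicer cKO, and only the Dicer cKO/ScxHt interval left out 1 (0.870, 0.778 to 0.973). Ifih1 (MDA5), which detects long double-stranded RNA, had 266, 241 and 296 reads, and its Dicer cKO/ScxHt ratio lay on the other side at 1.35 (1.14 to 1.61). Dhx58 (LGP2), a regulator of both sensors on chromosome 11 from 100694884 to 100704271, had 65 reads in Control, 74 in ScxHt and 32 in Dicer cKO. Dicer cKO was the low library, with a ratio of 0.477 (0.305 to 0.731) against ScxHt at a baseMean of 52.0. Against Control it was 0.511 (0.324 to 0.792) at a baseMean of 48.2, just under the minimum, so it was not counted there. Zbp1, a sensor of left-handed nucleic acid, had 25, 33 and 34 reads.

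Of the transcription factors, Irf7 and Irf1 were lower than Control in both libraries with Cre. Irf7, the amplifier of type I interferon transcription on chromosome 7 from 141262706 to 141266481, had 106 reads in Control, 62 in ScxHt and 68 in Dicer cKO. Relative to Control it was at 0.666 (0.484 to 0.912) in Dicer cKO and 0.560 (0.403 to 0.774) in ScxHt. Irf1, which drives MHC class I and other interferon gamma targets, had 315, 213 and 204 reads, and ratios of 0.672 (0.561 to 0.805) and 0.648 (0.542 to 0.773). Dicer cKO and ScxHt did not differ beyond counting error in either gene, at 1.21 (0.844 to 1.73) for Irf7 and 1.06 (0.867 to 1.28) for Irf1. Stat2 followed another order, with 430 reads in Control, 307 in ScxHt and 390 in Dicer cKO, and only ScxHt stood low at 0.684 (0.589 to 0.794) of Control. Irf9, its partner in the ISRE-binding complex, had 350, 358 and 345 reads, and its 3 intervals included 1.

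Among regulators of the response, Xaf1, an interferon-induced antagonist of XIAP on chromosome 11 from 72301629 to 72313733, had the order seen for Rsad2. It had 159 reads (2.09 RPKM) in Control, 83 (1.12 RPKM) in ScxHt and 205 (2.92 RPKM) in Dicer cKO. Dicer cKO was at 1.34 (1.08 to 1.66) of Control and 2.72 (2.10 to 3.56) of ScxHt, and ScxHt at 0.50 (0.379 to 0.656) of Control. Parp14, an ADP-ribosyltransferase, had 1055, 768 and 1017 reads, so Control and Dicer cKO were alike in counts (1.0, 0.917 to 1.09) and ScxHt was lower at 0.697 (0.635 to 0.766) of Control. Trim25, the ubiquitin ligase of the RIG-I pathway, had 557, 539 and 579 reads, and Usp18, which removes Isg15 and damps receptor signalling, had 51, 52 and 42. In Trim25 only the Dicer cKO/ScxHt interval left out 1 (1.18, 1.05 to 1.33), and in Usp18 none did.

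Of the interferon gamma-inducible GTPases, which act on vacuoles of intracellular pathogens, Gbp3 had 292 reads in Control, 227 in ScxHt and 269 in Dicer cKO. It was lower in ScxHt, at 0.745 (0.623 to 0.889) of Control. Igtp, with 72, 106 and 77 reads, was instead highest in ScxHt (1.41, 1.04 to 1.93), although 11.8% of its 50-base stretches occur in Irgm2. Gbp2 with 254, 256 and 208 reads and Irgm1 with 81, 90 and 102 had intervals that included 1 throughout. Of the other induced genes, Ifi27, a mitochondrial protein at 20.6 RPKM in Control, had 492, 494 and 430 reads. Its 3 intervals included 1, as did those of Ifi35 (143, 144 and 114 reads) and Rtp4 (95, 90 and 107). Ifi44 had 97, 71 and 71 reads, and only its ScxHt/Control interval left out 1 (0.701, 0.509 to 0.962).

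B2m, H2-K1 and H2-D1 were highest in ScxHt, while Tap1 and Nlrc5 were lowest there. B2m, the invariant light chain of MHC class I, lies on chromosome 2 from 122147686 to 122153083 and ranked 109 by RPKM among all genes in Control. It had 3160 reads in Control, 4710 in ScxHt and 3675 in Dicer cKO, and both libraries with Cre were above Control, at 1.43 (1.36 to 1.49) and 1.21 (1.15 to 1.27). The heavy chains H2-K1 and H2-D1, on chromosome 17, differed from Control in ScxHt alone. H2-K1 had 913, 1216 and 900 reads, at 1.28 (1.17 to 1.39) of Control in ScxHt and 1.02 (0.933 to 1.12) in Dicer cKO. H2-D1 had 1773, 2281 and 1606 reads, at 1.23 (1.16 to 1.31) and 0.941 (0.879 to 1.01). H2-K1 and H2-D1 shared 9.63% and 12.8% of their 50-base stretches with each other and with other class I genes such as H2-Q7.

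Tap1, one chain of the pump that brings peptides into the endoplasmic reticulum, had 165 reads in Control, 117 in ScxHt and 163 in Dicer cKO. Nlrc5, the transactivator of MHC class I genes, had 291, 219 and 290 reads. Both were lower in ScxHt only, at 0.679 (0.531 to 0.866) and 0.721 (0.602 to 0.862) of Control. Tap2, the other chain of the pump and outside the set, had 190, 198 and 205 reads. It was at 0.998 (0.814 to 1.22) of Control in ScxHt. Tapbp (tapasin), which bridges the transporter and class I, had 1127, 1021 and 840 reads and was lowest in Dicer cKO, at 0.774 (0.707 to 0.847) of Control. Exons of other annotated genes cover 24.9% of the Tapbp exons on the opposite strand, and the strand setting of the counting is not given in the sources used here.

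The immunoproteasome subunits, which change the peptides that reach class I, were scarce. Psmb8 had 29 reads in Control, 71 in ScxHt and 61 in Dicer cKO, so Control was the low library. Relative to Control it was at 2.18 (1.38 to 3.53) in Dicer cKO, with a baseMean of 45.3, and at 2.35 (1.5 to 3.75) in ScxHt, with a baseMean of 49.6, both just under the minimum and so outside the counts above. Gm20496 covers 14.7% of the Psmb8 exons on the opposite strand. Psmb9, which is divergently arranged with Tap1 and overlaps it, had 26, 15 and 24 reads.

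Of the genes upstream of the set, the ligands were nearly without reads. The 13 interferon genes looked for had 1 read in Control, 0 in ScxHt and 1 in Dicer cKO in all, from Ifnk, and Ifnb1 and Ifng had none in any library, so a ligand was not detectable at this depth. Of 14 receptor, kinase and feedback genes, 12 were above the minimum and 1, Socs3, was past a threshold in each comparison. This 8.33% below 0.60 compares with 4.19% of all genes in Dicer cKO/Control, 4.71% in ScxHt/Control and 5.68% in Dicer cKO/ScxHt. Socs3, the feedback inhibitor of cytokine signalling through gp130, had 588 reads in Control, 242 in ScxHt and 130 in Dicer cKO. It was below Control at 0.394 (0.338 to 0.459) in ScxHt and 0.230 (0.188 to 0.278) in Dicer cKO. Ifnar1, a chain of the type I receptor, had 868, 942 and 680 reads, and Dicer cKO was at 0.813 (0.735 to 0.90) of Control.

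Of 21 sensing and induction genes, 18 were above the minimum, and none passed a threshold in Dicer cKO/Control. In ScxHt/Control, 2 were above 1.67 (11.1%, against 3.03% of all genes). Tlr7, the endosomal receptor of single-stranded RNA found mainly in immune cells, had 99 reads in Control, 201 in ScxHt and 68 in Dicer cKO. It was at 1.94 (1.52 to 2.50) of Control in ScxHt, as was Prkra (PACT), a PKR activator that also binds DICER, at 1.71 (1.32 to 2.24). In Dicer cKO/ScxHt, Tlr7 was at 0.373 (0.279 to 0.493) and Irf5 at 0.597 (0.453 to 0.782). Mavs, the adaptor downstream of Ddx58 and Ifih1, had 737, 558 and 623 reads.

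A further 59 interferon-stimulated genes had a median near that of the set in Dicer cKO/ScxHt, and medians below those of the set in both ratios to Control. Of these, 47 were above the minimum for Dicer cKO/Control and 48 for the others. The median log2 ratio to Control was -0.12 in Dicer cKO and -0.19 in ScxHt, and that of Dicer cKO to ScxHt was 0.12. In the same order the set had 0.00, -0.11 and 0.14, and all genes had -0.03, 0.02 and -0.03. In Dicer cKO/Control, 33 of the 47 ratios were below 1 and 14 above. The interval lay below 1 in 14 and above 1 in 4, against 28.5% and 21.6% of all genes. In Dicer cKO/Control, Phf11d was higher at 2.04 (1.49 to 2.82), and Trim30a at 0.599 (0.467 to 0.766) and Shisa5 at 0.555 (0.484 to 0.636) were lower. In ScxHt/Control, 3 were lower, Ddx60 at 0.396 (0.311 to 0.502), Gbp9 at 0.580 (0.496 to 0.678) and Uba7 at 0.575 (0.431 to 0.763), and 2 were higher, Epsti1 at 2.09 (1.45 to 3.06) and Ifi27l2a at 1.69 (1.29 to 2.23). In Dicer cKO/ScxHt, Phf11d (1.84, 1.37 to 2.50) and Gbp6 (1.74, 1.25 to 2.43) were higher. Epsti1 (0.115, 0.0533 to 0.220), Ifi27l2a (0.426, 0.309 to 0.581) and Shisa5 (0.523, 0.457 to 0.598) were lower. Epsti1, Ifi27l2a and Shisa5 were at their highest in ScxHt, though the ScxHt/Control interval of Shisa5 included 1 (1.08, 0.966 to 1.21). The shares of this list above 1.67 were 2.13% in Dicer cKO/Control, 4.17% in ScxHt/Control and 4.17% in Dicer cKO/ScxHt, against 3.87%, 3.03% and 7.68% of all genes. Those below 0.60 were 4.26%, 6.25% and 6.25%, against 4.19%, 4.71% and 5.68%.

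Of 23 other genes of the MHC class I pathway, 20 were above the minimum. Tapbpl, a tapasin-related peptide editor with 70, 106 and 35 reads, was lower in Dicer cKO at 0.519 (0.336 to 0.790) of Control and 0.364 (0.241 to 0.538) of ScxHt. H2-Q6 was higher in ScxHt at 1.67 (1.25 to 2.25) of Control, whereas H2-T22 at 0.682 (0.578 to 0.805) and H2-Q10 at 0.645 (0.462 to 0.895) were lower. The ScxHt/Control intervals of H2-T23, H2-Q4 and H2-Q7 included 1. In Dicer cKO/ScxHt, H2-Q10 was at 1.88 (1.37 to 2.60) and Pdia3, a chaperone of glycoprotein folding in general, at 0.594 (0.577 to 0.612). Among other genes, H2-Q10 shared the most 50-base stretches with H2-K1. The stretches of H2-Q6 and H2-Q10 themselves were not looked up, so their values are uncertain. MHC class II presents peptides on macrophages, dendritic cells and B cells. In all 3 comparisons its median had the sign of that of the macrophage and myeloid markers described below. Of its 9 genes, 5 were above the minimum in Dicer cKO/Control, with a median log2 ratio of -0.53. All 5 had intervals below 1, against 28.5% of all genes. In ScxHt/Control the median over 6 genes was 0.65, and in Dicer cKO/ScxHt it was -1.31 over 5. Cd74, the class II invariant chain, had 330 reads in Control, 600 in ScxHt and 220 in Dicer cKO, and Ciita, the class II transactivator, had 87, 112 and 36.

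**Figure D3:**
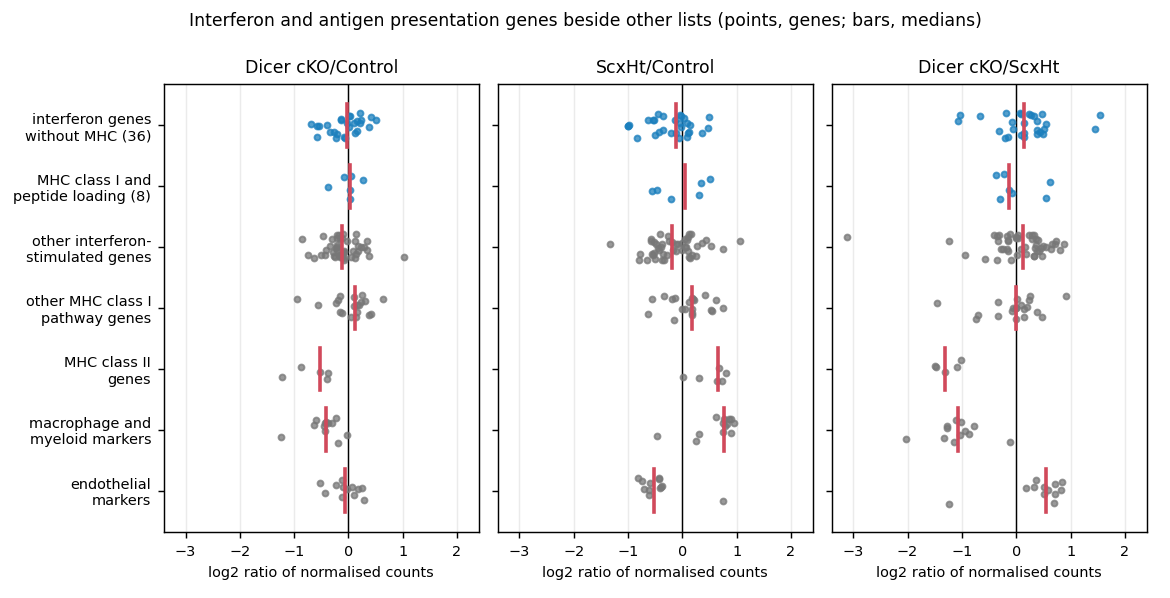
Log2 ratio of normalised counts of each gene above the minimum (points) and the median (red bars) for the interferon genes without the MHC class I role, the 8 MHC class I genes, and other lists, in the 3 comparisons. The medians of the interferon genes lie between -0.11 and 0.14, those of MHC class II genes at -0.53, 0.65 and -1.31, and those of macrophage markers at -0.42, 0.76 and -1.07.

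Markers of other cells moved between the libraries beside these values. The summed level of 16 macrophage and myeloid markers was 313 CPM in Control, 559 in ScxHt and 246 in Dicer cKO, with all 16 detected. The interval lay above 1 in 11 of 13 in ScxHt/Control, against 26.4% of all genes. It lay below 1 in 8 of 12 in Dicer cKO/Control (28.5% of all genes) and in 11 of 12 in Dicer cKO/ScxHt (30.6%). Cx3cr1, with 93, 70 and 59 reads, instead stood below Control in ScxHt at 0.721 (0.521 to 0.994). Aif1, under the minimum, had 10, 6 and 20 reads, the reverse order. The order of the macrophage sum, ScxHt highest and Dicer cKO lowest, was also that of some genes picked here for it. They were Cd74, Ciita, Tlr7, Epsti1, Ifi27l2a, Oas2, Dhx58, Ifitm2 and H2-D1. The ScxHt/Control intervals of Ciita, Oas2 and Dhx58 included 1. So did the Dicer cKO/Control intervals of Ifi27l2a, Ifitm2 and H2-D1, so these genes did not hold the whole order beyond counting error. The summed level of 12 endothelial markers was 875, 659 and 950 CPM in Control, ScxHt and Dicer cKO, with ScxHt lowest. The interval lay below 1 in 11 of 12 in ScxHt/Control (23.8% of all genes) and above 1 in 10 of 12 in Dicer cKO/ScxHt (24.9%). Lyve1, on this list with 528, 921 and 352 reads, went against both and had the order of the macrophage sum. In Dicer cKO/Control the endothelial markers were split, with a median ratio of 0.954. Of the 12 intervals, 4 lay above 1 and 4 below, against 21.6% and 28.5% of all genes. ScxHt was also the lowest library for Rsad2, Xaf1, Ifih1 and Oasl2, likewise picked for their order, though the ScxHt/Control interval of Ifih1 included 1. In bulk tissue, fewer cells of a type and less RNA per cell cannot be told apart, and the part of either cell type in these ratios was not tested.

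Markers of other immune cells had few reads, apart from some on the dendritic cell list. The 14 lymphocyte and NK markers summed to 36, 39 and 19 reads, with Cd3e at 7, 2 and 0, and the 8 neutrophil markers to 1, 9 and 0 reads. The 8 dendritic cell markers summed to 422, 353 and 269 reads in Control, ScxHt and Dicer cKO, of which Zbtb46, a transcription factor that endothelial cells also express, had 302, 219 and 208. Of the other seven, Itgax had 41, 33 and 28 reads, Cd209a 31, 39 and 7, Flt3 24, 19 and 5, Clec9a 9, 28 and 11, Siglech 9, 8 and 0, Xcr1 6, 7 and 10, and Ccr7 none. Flt3, Cd209a and Siglech were thus lowest in Dicer cKO, and Clec9a was highest in ScxHt. Schwann cell markers summed to 241, 316 and 758 CPM and erythroid markers to 190, 195 and 462, highest in Dicer cKO as muscle was, and their part in the values was likewise not tested. Without the 8 MHC class I genes, the remaining 36 genes had medians of -0.02 over 27 genes in Dicer cKO/Control, -0.11 over 29 in ScxHt/Control and 0.14 over 28 in Dicer cKO/ScxHt.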

How the data were processed

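Per the labels, total RNA of Achilles tendon was sequenced, 1 library for each of the 3 genotypes. The authors trimmed adaptors, mapped paired-end reads to GRCm38 (mm10) with Tophat and Bowtie2, counted reads per gene with HTSeq, and used DESeq2 with shrunken fold changes. Versions, the annotation release and the strand setting are not given in the sources used here. The authors deposited raw counts, used here for every ratio without shrinkage, and RPKM per library, used only to compare levels between genes. Columns of other samples numbered 0, and the small RNA-seq files were not used.

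Of 54189 rows, 463 with the name and counts of an earlier row were dropped, leaving 53726. Counts were divided by DESeq2 1.42.0 size factors of the 2 libraries compared (R 4.3.3). Following the study's methods, the minimum baseMean was 50, and ratios above 1.67 or below 0.60 were counted. The 95% Clopper-Pearson intervals came from scipy 1.17.1 and cover counting error only, and 3 reads were taken as the floor for a gene at 0. The calculation was tested on simulated data. Alternatives were edgeR 4.0.16 TMM, other scalings, minimum counts and thresholds. Figures were drawn with matplotlib 3.10.9.

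The 44 genes and the lists were chosen with earlier results of these data known. Any of the 44 could be named. Full values were due for those past a threshold above the minimum and for the highest and lowest of a role in Control, and genes under the minimum were given as counts, with ratios added for Dhx58, Psmb8 and Oas3 after their values were seen. Genes of other lists were named where past a threshold. Ifnar1, Mavs, Ifnb1, Ifng, Ifnk, Cd3e, Lyve1, Myh4, Pvalb, Cx3cr1, Aif1 and the dendritic cell markers were named after their values were seen. So were Tap2, H2-T22, H2-T23, H2-Q4 and H2-Q7. A few list genes have no value in the text. Ifi30, Slfn2 and Slfn8, each on several lines with different counts, were left out. Positions came from GENCODE vM21 on GRCm38. By annotation, 12 of the 44 had exon bases under an exon of another gene on the opposite strand and 6 on the same strand. Stretches of 50 bases of each gene's transcripts were looked up in those of all other genes, and 34 of the 44 shared under 5%.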

Additional observations from a re-analysis of the deposited data

How the results depend on the processing

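No paired analysis was possible because each genotype has 1 library, and no library could be left out. The counts of genes past the thresholds depended on the minimum count. At a minimum baseMean of 10, without a minimum and at 200, Dicer cKO/Control had 2, 3 and 0 genes higher and 1, 2 and 0 lower (main 0 and 0). ScxHt/Control had 3, 3 and 0 higher and 5, 6 and 0 lower (main 0 and 4). Dicer cKO/ScxHt had 4, 4 and 0 higher and 4, 5 and 0 lower (main 2 and 2). Thresholds of 2 and 0.5 left 2 lower in ScxHt/Control, and with the whole interval past the threshold it had 0 lower and Dicer cKO/ScxHt 0 lower. Under total counts 1 gene was higher in ScxHt/Control. Total counts moved the median log2 ratio of all genes above the minimum in ScxHt/Control from 0.02 to 0.12. That of the genes among the 44 above the minimum moved from -0.11 to 0.02, so it stayed below that of all genes. Of all genes, 667 were higher and 438 lower in Dicer cKO/Control, 640 and 456 in ScxHt/Control and 897 and 962 in Dicer cKO/ScxHt under total counts, against 519 and 561, 408 and 634, and 1033 and 764. Of the recomputed ratios of single genes, 657 moved by less than their counting interval and 0 reversed, and 3 moved further. B2m (1.54) and H2-D1 (1.33) in ScxHt/Control and B2m (0.822) in Dicer cKO/ScxHt did so under total counts.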
